A study of Gallus gallus with 100 samples.

Results

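Pituitary glands of 5 control broilers labelled day 40 were set against those of 10 control broilers labelled day 22, which makes 15 of the 100 samples in the series. The birds were males of Ross 708, a line of meat-type chickens, and each library holds polyadenylated RNA of the whole gland of 1 bird. Control birds of both days lived in a thermoneutral house kept at 25 °C with 23 hours of light and were never heat-stressed, so the groups differ by the labelled day of life and by the table that holds them. Heat-stressed birds, with 5 glands at day 40 and 13 at day 22, came from a house that the design describes as warmed to 35 to 37 °C for 8 hours of each day from day 21 on. They were used only to look at the same pair of days in other birds. The libraries were chosen by their labels and not by any measured value. The design text of the series names necropsies at days 21, 22, 26, 32 and 42 and no day 40. The titles of these birds, control and heat-stressed, read Day 40 Week, and what the word Week stands for was not given, so the label was kept as it stands and the number of heat days of the day 40 birds was not taken as known.

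The pituitary joins an anterior lobe of epithelial endocrine cells, which make growth hormone, prolactin and the other trophic hormones, to a posterior neural lobe made of axon terminals of the hypothalamus and of glial cells called pituicytes. Young endocrine and glial cells divide after hatch, and the proteins that copy, condense and separate the chromosomes are made mostly in cells that are in the cycle. Glial cells are recognised by proteins such as the calcium-binding S100B, and cells that make myelin by membrane proteins such as PLLP.

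Values are FPKM, the fragments of a gene scaled to the length of the gene and to the mapped fragments of the library. The table of day 40 lists 12694 genes and that of day 22 lists 14174, with 11443 genes in both. Of these, 7967 genes averaged 1 FPKM or more over the 15 libraries and were tested with limma on log2(FPKM + 1), and 3476 lay below that mean. A log2 fold change is day 40 over day 22 after 1 is added to both levels, so weakly expressed genes appear to change less than their FPKM do. A gene rose or fell where its adjusted p was under 0.05 and the change was at least 2-fold. Positions are those of the day 40 table on galGal4. Day and table cannot be told apart, since each day has a table of its own. Fewer cells of a type and less RNA per cell cannot be told apart in whole glands either.

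The labelled tissue was checked against hormone genes first. GH, the growth hormone gene, lay at 7.13 to 22.1 FPKM at day 40 (median 13.8) and at 1.07 to 92.5 at day 22 (median 14.7), whereas the 10 control libraries of day 42 held 17869 to 147127 FPKM (median 62216). PRL, the prolactin gene, did not exceed 0.85 FPKM in any day 40 library and 14.8 in any day 22 library, and was listed at 0 in 3 of 5 and 6 of 10 libraries. Some transcription factors of anterior pituitary cells were low as well, with highest values of 0.0994 at day 40 and 0.411 at day 22 for POU1F1, 0.324 and 0.472 for PITX1, and 1.25 and 2.22 for LHX3. Of the 16 listed factors in both tables, 5 averaged 1 FPKM or more. Among them, NR0B1 was 4.12 to 5.15 FPKM at day 40 and 2.05 to 7.22 at day 22, and EYA3 was 5.06 to 6.90 and 4.42 to 8.49. Day 42 levels of these factors are not given here. PLLP, or plasmolipin, a membrane protein of myelin, was at 798 to 1640 FPKM at day 40 and 669.5 to 1565 at day 22, whereas day 42 controls held at most 0.651 FPKM and listed it at 0 in 6 of 10 libraries. In the libraries of both groups GH and PRL were thus far below their day 42 levels (PRL at 1029 to 15991 FPKM), and PLLP was far above its own.

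Over all genes of each table, FPKM summed to 276813 to 301560 per library at day 40 and 226025 to 285784 at day 22 (exact permutation test, two-sided, p = 0.004). Over the shared genes alone, which were the ones compared, they summed to 233556 to 257564 per library at day 40 and 217535 to 275813 at day 22 (exact permutation test, two-sided, p = 0.797), and a median of 7764 and 7727 genes reached 1 FPKM (exact permutation p = 0.972). The smallest p this design allows is 0.000666. Reads per library were not used here, and relative depth, read from the steps between low values with the deepest library of a table as 1, was 0.736 to 1 at day 40 and 0.506 to 1 at day 22. Some libraries stood apart. Day 40 library 1578 held bone matrix genes (SPP1 at 867 FPKM, against at most 2.86 in the other day 40 libraries), day 40 library 1579 held genes of the pineal gland (TPH1 at 82.5 FPKM, against at most 0.767), and day 22 library 1552 had the lowest relative depth and the lowest correlations with the other libraries (median r 0.863 across genes). Results were therefore also computed without these 3 libraries.

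At day 40, 6 genes rose (0.0753% of the tested genes) and 9 fell (0.113%) relative to day 22. With the adjusted p alone, 18 genes were higher (0.226%) and 80 lower (1%), and rescaling each library to its median gene gave 35 higher and 73 lower. At an unadjusted p under 0.05, 358 of the 7967 tested genes were higher and 1014 lower. The genes that rose were FOS, BRF2, S100B, LOC768772, RGS1 and TPPP3, and those that fell were PPP1R9A, SMC2, CDK1, CKAP2, NUDT3, RRM2, HRH3, PLK1 and SEMA3D. Over the tested genes the log2 fold changes had a median of -0.06, and 59.8% of them were negative. The 5 day 40 libraries lay entirely above the 10 day 22 libraries for 13 genes (0.163%) and entirely below them for 76 genes (0.954%). Without libraries 1578, 1579 and 1552 there were 4 genes that rose and 31 that fell.

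Genes of cell division were lower at day 40. Of 28 genes of a cell cycle list, 21 were in both tables and tested, and MKI67, TOP2A, CCNB3, CCNE2, MCM6, CDC20 and KIF11 were not analysed here. All 21 had a negative log2 fold change, from -1.23 to -0.22 with a median of -0.59, against -0.06 over all tested genes. The list, like the others here, was chosen with earlier results of these data known, so it is not independent of them. At an adjusted p under 0.05, 10 of the 21 were lower (1% of all tested genes) and 0 higher (at an unadjusted p under 0.05, 18 lower and 0 higher), and 3 of the 10 fell at least 2-fold. The mean log2(FPKM + 1) of the 21 genes was 2.24 to 2.48 in the day 40 libraries and 2.74 to 3.30 in the day 22 libraries, with no overlap. The median was -0.51 after rescaling to the median gene and -0.67 without libraries 1578, 1579 and 1552, with 10 genes lower at an adjusted p under 0.05 in each of these fits, not all of them the same genes.

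**Figure D1:**
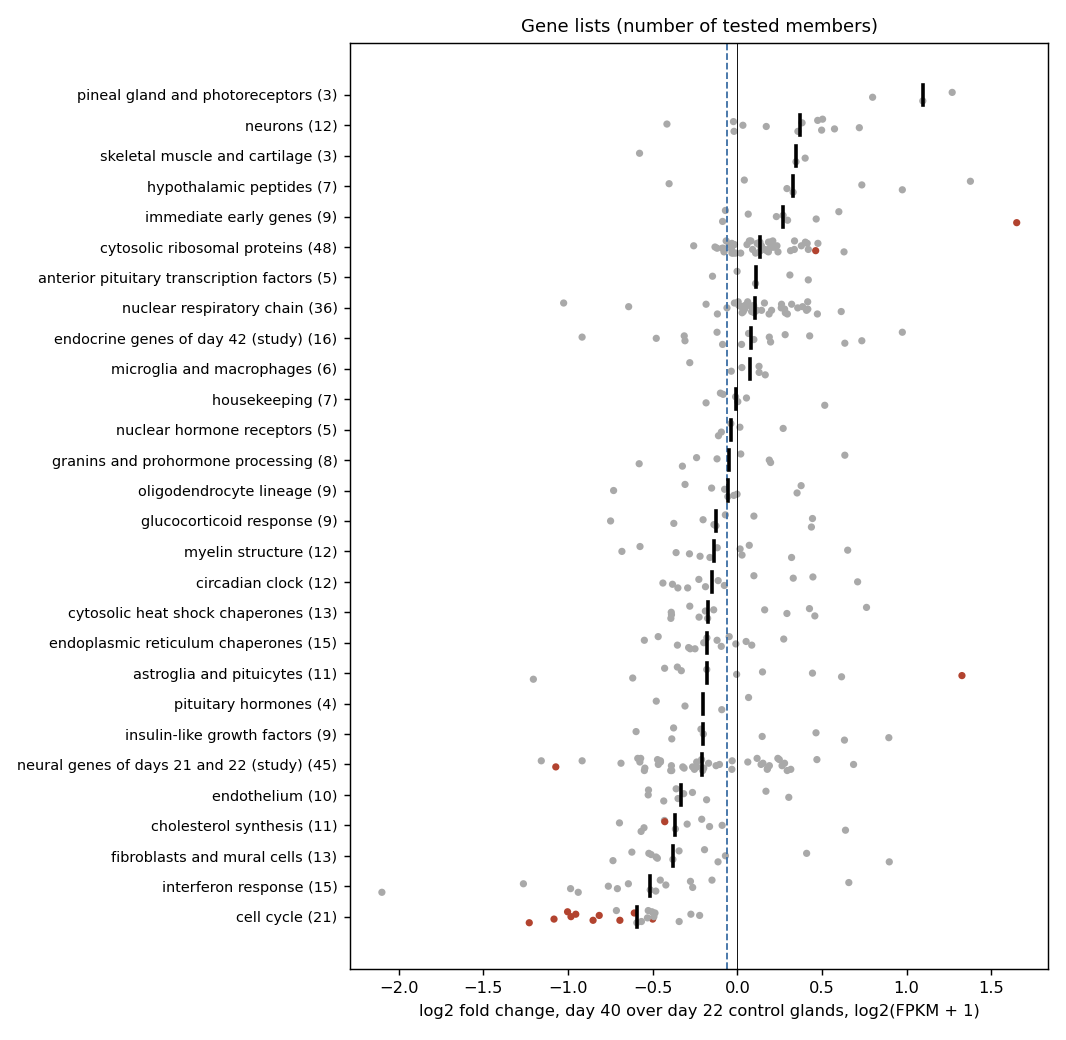
Log2 fold changes, day 40 over day 22, on log2(FPKM + 1), of the tested members of each gene list with at least 3 of them, with the number of members in brackets. Each point is a gene, red where its adjusted p was under 0.05, the short black bars are list medians and the dashed line is the median of all tested genes (-0.06), and the cell cycle list lies wholly below 0 with the lowest median of the lists shown (-0.59).

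CDK1 is the kinase that drives entry into mitosis (Entrez 396252, chromosome 6, 8162929 to 8170956). Its level was 11.8, 11.02, 8.48, 9.45 and 7.52 FPKM in the day 40 libraries, against 17.2 to 36.2 with a median of 23.8 in the day 22 libraries. Every day 40 library lay below every day 22 library, with means of 9.65 ± 1.75 (SD, n = 5) and 24.2 ± 5.74 FPKM (SD, n = 10), and CDK1 fell with a log2 fold change of -1.23 ± 0.16 (SE, adjusted p = 0.00172, limma). CCNB2 is a cyclin partner of CDK1 (Entrez 415400, chromosome 10, 6314063 to 6321142), and it stood at 5.39, 7.29, 7.49, 5.32 and 6.57 FPKM at day 40 and at 8.68 to 18.2 (median 13.6) at day 22. The groups did not overlap and CCNB2 was lower at day 40 (log2 fold change -0.95, adjusted p = 0.00682, limma), just short of 2-fold. CCNA2, the cyclin of S phase and of the entry into mitosis, was 3.05 to 4.16 FPKM at day 40 and 4.34 to 6.45 at day 22 (log2 fold change -0.50, adjusted p = 0.0339, limma), again without overlap, but its adjusted p stayed under 0.05 in only 5 of 15 fits that left out 1 library. FOXM1, the transcription factor of many genes used late in the cycle, was 1.91 to 2.48 FPKM at day 40 and 3.00 to 4.29 at day 22 (log2 fold change -0.51, adjusted p = 0.0212, limma), which held in 12 of those 15 fits.

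Genes of mitotic kinases and checkpoint proteins were lower too. PLK1, a kinase of spindle assembly and of the exit from mitosis (Entrez 416575, chromosome 14, 6884059 to 6889576), was 1.14, 1.86, 1.60, 1.51 and 1.38 FPKM at day 40, against 2.59 to 5.66 with a median of 3.99 at day 22. These groups did not overlap, and the log2 fold change of -1.003 ± 0.14 (SE, adjusted p = 0.00421, limma) lay at the 2-fold limit, which PLK1 passed in 8 of 15 fits that each left out 1 library, while its adjusted p stayed under 0.05 in all 15. AURKA, the kinase of the spindle poles, was 1.17 to 1.89 FPKM at day 40 and 2.30 to 3.95 at day 22 (log2 fold change -0.69, adjusted p = 0.0141, limma). BUB1B, which holds the spindle checkpoint until the chromosomes are attached, was 1.35 to 2.01 FPKM at day 40 and 2.52 to 6.61 at day 22 (log2 fold change -0.82, adjusted p = 0.0212, limma). UBE2C, the ubiquitin carrier that works with the anaphase-promoting complex, was 11.4 to 15.8 FPKM at day 40 and 18.7 to 31.5 at day 22 (log2 fold change -0.86, adjusted p = 0.0022, limma). For none of these 3 genes did a day 40 library reach the lowest day 22 library.

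Genes for proteins of the chromosomes, the spindle and DNA synthesis included some of the largest falls. SMC2, a core subunit of the condensin ring that compacts mitotic chromosomes (Entrez 396156, chromosome Z, 66288452 to 66312320), was 2.18, 2.41, 2.26, 2.40 and 2.28 FPKM at day 40, against 4.48 to 11.4 with a median of 7.41 at day 22. The day 40 libraries lay between 2.18 and 2.41 FPKM, all below day 22, and SMC2 fell by a log2 fold change of -1.38 ± 0.16 (SE, adjusted p = 0.00121, limma). CKAP2, a microtubule-associated protein of the mitotic spindle (Entrez 418882, chromosome 1, 169701517 to 169710954), was 4.86, 4.32, 3.20, 3.96 and 3.23 FPKM at day 40 and 7.53 to 13.2 (median 9.94) at day 22. It fell by -1.18 ± 0.14 (log2 fold change, SE, adjusted p = 0.00122, limma), also without overlap. RRM2, the small subunit of ribonucleotide reductase, which makes the building blocks of DNA (Entrez 421936, chromosome 3, 96087183 to 96092213), was 3.58, 5.06, 5.78, 3.55 and 3.40 FPKM at day 40 and 6.75 to 19.0 (median 9.58) at day 22. RRM2 fell by -1.08 ± 0.21 (log2 fold change, SE, adjusted p = 0.0212, limma) with no overlap, and the call was lost without day 40 library 1516 or 1579 or day 22 library 1553.

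**Figure D2:**
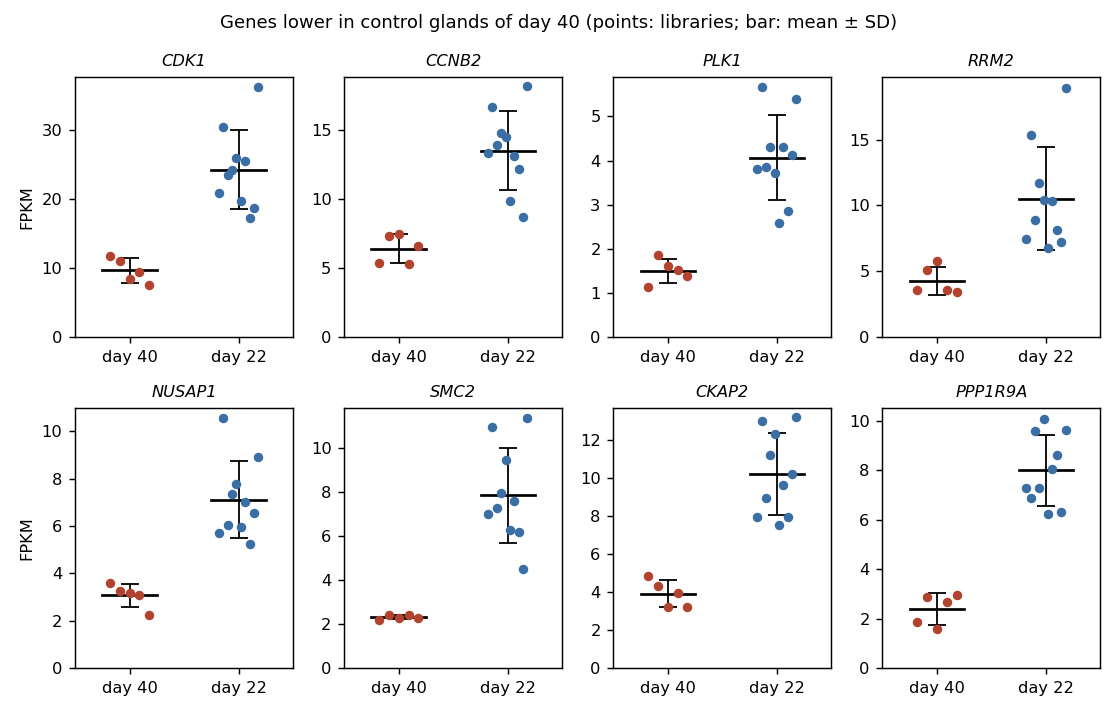
FPKM of 8 genes that were lower in control glands of day 40 (red, 5 libraries) than of day 22 (blue, 10 libraries), with each point 1 library and bars at the mean ± SD. In each panel the 5 day 40 libraries lie below all day 22 libraries, as for CDK1 with 7.52 to 11.8 against 17.2 to 36.2 FPKM.

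Spindle and cytokinesis genes were also lower at an adjusted p under 0.05. NUSAP1, which bundles spindle microtubules around chromosomes (Entrez 423213, chromosome 5, 23859403 to 23873315), was 2.25 to 3.59 FPKM at day 40 and 5.24 to 10.6 at day 22 (log2 fold change -0.98, adjusted p = 0.00421, limma). NDC80 ties kinetochores to microtubules, and its levels were 0.857 to 1.42 FPKM at day 40 and 2.05 to 3.37 at day 22 (log2 fold change -0.81, adjusted p = 0.00682, limma). CENPE, a kinetochore motor, was 0.459 to 0.919 FPKM at day 40 and 1.18 to 2.81 at day 22, a ratio of means of 0.311, while its log2 fold change of -0.85 (adjusted p = 0.0184, limma) is damped by the added 1. ECT2, the exchange factor that starts the cleavage furrow, was 0.873 to 1.26 FPKM at day 40 and 2.21 to 5.14 at day 22 (log2 fold change -0.94, adjusted p = 0.00682, limma). The groups were apart for all 4 genes. MYH9, the heavy chain of non-muscle myosin, which also works in cell movement and shape, was 15.4 to 20.5 FPKM at day 40 and 23.2 to 56.5 at day 22 (log2 fold change -0.98, adjusted p = 0.0103, limma).

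Of the 80 genes that were lower at an adjusted p under 0.05, 36 are known for a role in cell division. These 36 were picked from the 80 after their values were seen, so their number is a description without a test. They include 26 genes outside the cell cycle list, among them KIF23, RACGAP1 and KIF20A of the central spindle, PTTG1, which guards sister chromatid separation, and UHRF1, which helps copy DNA methylation. In 28 of the 36 the groups did not overlap, against 0.954% of all tested genes with day 40 entirely lower. The 36 had passed a filter on p, which favours groups without overlap, so this count says little about cell division genes. Of the 36, 14 kept an adjusted p under 0.05 in all 15 fits that left out 1 library, and 26 did so without libraries 1578, 1579 and 1552. Where a gene model spans other bases in the 2 tables, its FPKM could shift with the table. Start and end were the same in both tables for 3530 tested genes, which hold 23 of the 36 genes and a median of -0.59 over 13 cell cycle members, against -0.04 over all 3530 genes. The 4437 genes with another start or end hold 13 of the 36 and a median of -0.56 over 8 cell cycle members, against -0.08 over all 4437. Equal ends do not show equal exons, and an effect of the table was not tested.

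The glial marker S100B was among the genes that rose. S100B encodes a calcium-binding protein of astroglia, pituicytes and folliculostellate cells (Entrez 424038, chromosome 7, 6919905 to 6929087), and its levels were 152, 278, 209, 138 and 197 FPKM at day 40, against 37.4 to 101 with a median of 80.0 at day 22. The lowest day 40 library stood above the highest day 22 library, and S100B rose by a log2 fold change of 1.33 ± 0.21 (SE, adjusted p = 0.00727, limma), a ratio of means of 2.52. The call was kept in all 15 fits that left out 1 library and without libraries 1578, 1579 and 1552. TPPP3, a tubulin-binding protein of the family of a myelin-cell protein (Entrez 415669, chromosome 11, 1214087 to 1215691), was 105, 119, 105, 110 and 102 FPKM at day 40 and 21.5 to 78.6 (median 50.3) at day 22. The groups were apart, with a log2 fold change of 1.06 ± 0.22 (SE, adjusted p = 0.0339, limma), but the call held in only 4 of 15 fits that left out 1 library, and without libraries 1578, 1579 and 1552 the change was 0.93. PLEKHB1, a membrane-binding protein found in photoreceptors and in brain of mammals, was 158 to 245 FPKM at day 40 and 93.4 to 193 at day 22 (log2 fold change 0.69, adjusted p = 0.0387, limma), with overlap. Its adjusted p stayed under 0.05 in 3 of 15 fits that left out 1 library and was 0.053 after rescaling to the median gene.

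No other gene of the glial lists passed the test in the fit of all 15 libraries. In the astroglia and pituicyte list, 1 of 11 tested genes, S100B itself, was higher at an adjusted p under 0.05 and 0 were lower. The list median was -0.18, and at an unadjusted p under 0.05 there were 2 higher and 2 lower genes. SLC1A2 had the lowest log2 fold change of the list, -1.20, and was listed at 0 in day 40 library 1578. LHX2, a transcription factor needed for pituicytes in the mouse, was 5.47 to 8.94 FPKM at day 40 and 6.31 to 14.8 at day 22 (log2 fold change -0.62, adjusted p = 0.0576, limma). Its adjusted p was 0.0309 without libraries 1578, 1579 and 1552 (limma), and under 0.05 in 1 of 15 fits that left out 1 library. In heat-stressed glands LHX2 was 3.82 to 7.85 FPKM at day 40 and 8.93 to 17.3 at day 22, without overlap. GLUL, glutamine synthetase, was 228 to 674 FPKM at day 40 and 99.0 to 306 at day 22 (log2 fold change 0.62, adjusted p = 0.253, limma), with the highest value in day 40 library 1279. Of the 12 myelin genes and 9 genes of the oligodendrocyte lineage, 0 passed an adjusted p of 0.05 with limma, with list medians of -0.14 and -0.06. Of all 7967 tested genes, 1014 were lower and 358 higher at an unadjusted p under 0.05. At that p, 3 myelin genes were lower, and 1 lineage gene was higher and 1 lower. TSPAN2, a tetraspanin of myelinating cells, came nearest at 235 to 301 FPKM at day 40 and 276 to 574 at day 22 (log2 fold change -0.68, adjusted p = 0.0767, limma). PDGFRA, the receptor that marks oligodendrocyte precursors, was 5.08 to 16.7 FPKM at day 40 and 12.5 to 31.2 at day 22 (log2 fold change -0.73, adjusted p = 0.17, limma).

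**Figure D3:**
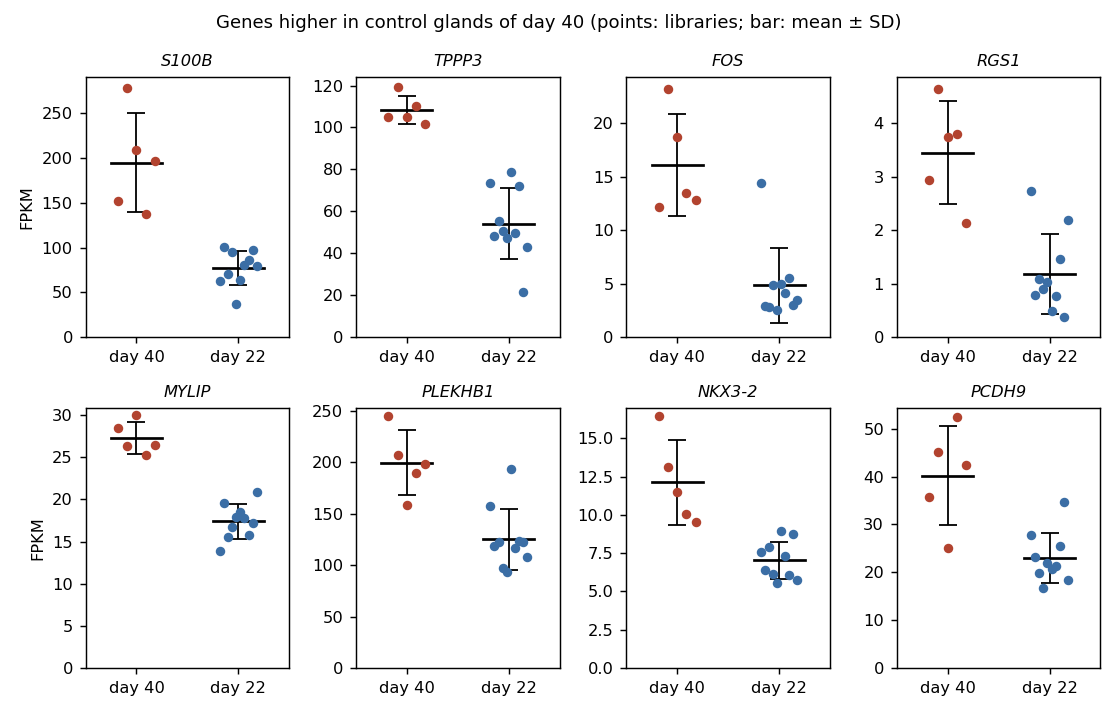
FPKM of 8 genes that were higher in control glands of day 40 (red, 5 libraries) than of day 22 (blue, 10 libraries), with each point 1 library and bars at the mean ± SD. S100B (138 to 278 against 37.4 to 101 FPKM), TPPP3, MYLIP and NKX3-2 are apart, while the groups overlap for FOS, RGS1, PLEKHB1 and PCDH9.

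FOS had the largest log2 fold change of the genes that rose. FOS is an immediate early gene, a transcription factor switched on within minutes of many stimuli (Entrez 396512, chromosome 5, 37501643 to 37504011), and was 12.1, 23.2, 18.7, 13.5 and 12.8 FPKM at day 40, against 2.503 to 14.4 with a median of 3.83 at day 22. Only day 22 library 1437, at 14.4 FPKM, reached the day 40 range, and the next day 22 library had 5.55. FOS rose by 1.65 ± 0.29 (log2 fold change, SE, adjusted p = 0.0121, limma) and kept the call in all 15 fits that left out 1 library. Of the 9 tested immediate early genes, FOS alone passed the adjusted p, and the list median was 0.27. EGR1 was 7.72 to 18.6 FPKM at day 40 and 5.05 to 17.1 at day 22 (adjusted p = 0.348, limma), and CYR61 was 3.01 to 11.1 and 2.29 to 5.29 FPKM (adjusted p = 0.213, limma). RGS1, a regulator of G protein signalling known from immune cells and picked after its values were seen, was 2.13 to 4.64 FPKM at day 40 and 0.382 to 2.73 at day 22 (log2 fold change 1.07, adjusted p = 0.0339, limma), and its call held in 7 of 15 fits that left out 1 library and not without libraries 1578, 1579 and 1552.

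The other genes that rose or fell belong to no common list. PPP1R9A, or neurabin, is an actin-binding partner of protein phosphatase 1 in neurons (Entrez 420568, chromosome 2, 23846206 to 23979127). It had the smallest adjusted p of all tested genes (0.000214, limma), with 1.86, 2.87, 1.57, 2.69 and 2.96 FPKM at day 40 and 6.24 to 10.1 (median 7.68) at day 22, and fell by a log2 fold change of -1.42 ± 0.14 (SE) without overlap. SEMA3D, a secreted axon guidance signal (Entrez 396332, chromosome 1, 8177007 to 8321177), was 12.5, 13.1, 10.1, 16.2 and 10.4 FPKM at day 40 and 17.9 to 37.0 (median 26.5) at day 22, again apart (log2 fold change -1.003 ± 0.17, SE, adjusted p = 0.01, limma). Like PLK1, SEMA3D kept the 2-fold call in 8 of 15 fits that left out 1 library and the adjusted p in 15. BRF2, a part of the RNA polymerase III machinery (Entrez 426772, chromosome 22, 2212987 to 2216143), was 3.52, 2.10, 2.35, 3.78 and 2.24 FPKM at day 40, whereas 7 of the 10 day 22 libraries list it at 0 and the other 3 at 0.963, 1.57 and 1.70. Its log2 fold change of 1.53 (adjusted p = 0.02, limma) rests on those listings, and the call was lost without day 40 library 1579.

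HRH3, the histamine receptor that restrains transmitter release, was the only one of the 45 tested neural genes taken from the study's own lists that fell. It was 1.32 to 3.32 FPKM at day 40 and 3.08 to 10.6 at day 22 (log2 fold change -1.07, adjusted p = 0.0362, limma), with overlap, and kept the call in 5 of 15 fits that left out 1 library and not without libraries 1578, 1579 and 1552. The study chose that list on libraries that include those of day 22, so it is not independent evidence of direction, and its median was -0.21. NUDT3, a phosphatase of inositol pyrophosphates, and the uncharacterised LOC768772 were outside the rule for named genes and were picked after their values were seen. NUDT3 was 10.4 to 22.8 FPKM at day 40 and 11.1 to 38.6 at day 22 (log2 fold change -1.09), and LOC768772 was 491 to 879 and 170 to 542 FPKM (log2 fold change 1.20). Each of these calls held in 4 of 15 fits that left out 1 library. Among genes short of 2-fold, MYLIP, the ubiquitin ligase that sends the LDL receptor to degradation, was 25.3 to 30.1 FPKM at day 40 and 13.9 to 20.9 at day 22 (log2 fold change 0.63, adjusted p = 0.00563, limma), and NKX3-2, a homeobox gene known from cartilage, was 9.52 to 16.4 and 5.53 to 8.92 FPKM (log2 fold change 0.70, adjusted p = 0.0212, limma).

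No hormone gene passed the test, and the birds of each day differed widely in them. Over the 4 tested hormone genes the mean log2(FPKM + 1) was 5.11 and 5.10 in day 22 libraries 1432 and 1437. It was 0.523 to 3.86 in the other day 22 libraries. Libraries 1432 and 1437 also held the highest GH values of day 22, 92.5 and 73.1 FPKM. GH had a log2 fold change of -0.09 ± 0.77 (SE, adjusted p = 0.965, limma) and POMC, the precursor of corticotropin, of 0.07 ± 1.02 (SE, adjusted p = 0.98, limma), with 0 to 8.67 FPKM at day 40 and 0 to 45.4 at day 22. CGA, the shared subunit of the glycoprotein hormones, was 0.371 to 8.33 FPKM at day 40 and 0.226 to 113 at day 22 (adjusted p = 0.91, limma). Standard errors of that size leave changes of several-fold undetectable. FSHB lay under the filter (highest values 0.0457 FPKM at day 40 and 0.347 at day 22), and LHB and TSHB were not analysed here. Of 13 receptor genes for releasing and inhibiting hormones in both tables only ADCYAP1R1, the PACAP receptor, was tested. It was 2.82 to 6.65 FPKM at day 40 and 3.19 to 12.8 at day 22 (log2 fold change -0.87, adjusted p = 0.102, limma). Without libraries 1578, 1579 and 1552 ADCYAP1R1 fell (log2 fold change -1.18, adjusted p = 0.0195, limma). Its adjusted p was under 0.05 in only 1 of 15 fits that left out 1 library. The other 12 receptor genes stayed at or under 1.42 FPKM at day 40 and 1.55 at day 22. Of the anterior pituitary transcription factors, GATA2, HESX1, NR0B1 and EYA3 had log2 fold changes from -0.15 to 0.42 (EYA3 and HESX1, adjusted p = 0.611 and 0.4664, limma), and the 11 that were under the filter stayed at or under 1.72 FPKM at day 40 and 3.64 at day 22. DIO2, which makes active thyroid hormone, was 7.77 to 12.2 FPKM at day 40 and 6.32 to 43.5 at day 22 (log2 fold change -0.92, adjusted p = 0.177, limma).

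Genes of cholesterol synthesis and of the interferon response had list medians below that of all tested genes, with few or no single calls. Of 11 tested genes of cholesterol synthesis and handling, 10 had a negative log2 fold change and the median was -0.37. At an unadjusted p under 0.05, 7 were lower and 1 higher, against 1014 lower and 358 higher of all 7967 tested genes. In heat-stressed glands 7 of the 11 were lower at an adjusted p under 0.05, against 9.6% of all genes tested there. The list median there was -0.57, against -0.11 over all those genes. In control glands 1 of the 11 was lower at an adjusted p under 0.05. That gene was STARD4, a cholesterol carrier (Entrez 769322, chromosome Z, 46333365 to 46341828), at 10.4, 9.58, 9.60, 9.99 and 8.56 FPKM at day 40 and 11.7 to 15.7 (median 13.3) at day 22 (log2 fold change -0.43, adjusted p = 0.0212, limma), with an adjusted p of 0.0574 after rescaling to the median gene. HMGCS1, an early enzyme of the pathway, was 116 to 237 FPKM at day 40 and 194 to 459 at day 22 (log2 fold change -0.70, adjusted p = 0.0797, limma). Of 15 interferon response genes, 14 were negative with a median of -0.51, and 0 passed an adjusted p of 0.05 with limma, with 6 lower at an unadjusted p under 0.05. IFIT5, an interferon-induced RNA binder, was 7.22 to 15.95 FPKM at day 40 and 10.7 to 82.3 at day 22 (log2 fold change -1.26, adjusted p = 0.182, limma), so some day 22 birds were high and others were not.

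No heat shock chaperone gene passed the test in control birds. The cytosolic list had a median of -0.18 over 13 genes, 8 of them negative, close to the 59.8% negative over all tested genes, and the endoplasmic reticulum list -0.18 over 15 genes, and 0 of either passed an adjusted p of 0.05 with limma, with 2 higher and 3 lower cytosolic genes and 3 lower reticulum genes at an unadjusted p under 0.05. HSP90AA1, an inducible HSP90, was 538, 567, 568, 577 and 517 FPKM at day 40 and 610 to 901 (median 697) at day 22. The groups were apart, but the adjusted p missed the threshold (log2 fold change -0.39, adjusted p = 0.0627, limma). Ribosomal protein genes had a median of 0.14 over 48 genes, and 1 of them, RPS26, was higher at an adjusted p under 0.05. RPS26 was 282 to 394 FPKM at day 40 and 200 to 274 at day 22 (log2 fold change 0.46). It passed in 5 of 15 fits that left out 1 library and not without libraries 1578, 1579 and 1552 (adjusted p = 0.112, limma). Nuclear genes of the respiratory chain had a median of 0.11 over 36 genes, with 30 positive and 0 past an adjusted p of 0.05 with limma. At an unadjusted p under 0.05 there were 11 higher and 1 lower, against 358 higher and 1014 lower of all 7967 tested genes. By the rank-sum test 0 of all 7967 genes reached an adjusted p under 0.05, with 1254 at an unadjusted p under 0.05, against 1372 with limma. The smallest rank-sum p that 5 against 10 libraries allow, 0.000666, came to 0.0596 after adjustment. With the number of genes that were apart, that test could therefore call none, and its 0 says nothing about single genes.

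Markers of other cell types were listed beside these results. Of the lists for neurons, hypothalamic peptides, the pineal gland, microglia, endothelium, fibroblasts and mural cells, muscle and cartilage, clock genes, glucocorticoid response, nuclear receptors, granins, insulin-like growth factors, housekeeping and the study's endocrine genes of day 42, 0 of 113 genes passed an adjusted p of 0.05 with limma. An unadjusted p under 0.05 was found for 18 of the 113, and for 1372 of all 7967 tested genes. The neuron list had a median of 0.37 over 12 genes and the hypothalamic peptides 0.33 over 7, and both changed sign without libraries 1578, 1579 and 1552, to -0.41 and -0.32. The summed level of the neuron list was 113 to 408 FPKM at day 40 and 87.7 to 568 at day 22. NEFL of that list was 26.0 and 32.6 FPKM in day 22 libraries 1432 and 1437 and 2.16 to 11.8 in the other day 22 libraries. The summed level of the fibroblast and mural list was 424 to 1320 FPKM at day 40 and 319 to 1208 at day 22. The pineal list had 3 tested genes with a median of 1.10. Without the 3 libraries only 1 of these genes averaged 1 FPKM or more, with a log2 fold change of 0.14, TPH1 being at 82.5 FPKM in library 1579 and at most 0.767 in every other library of both days. The endothelium list had a median of -0.33 and the fibroblast and mural list of -0.38, and their part in the lower level of cell division genes was not tested. No gene of the red blood cell list was tested, and the 2 listed summed to 0.162 to 0.707 FPKM at day 40 and 0.249 to 3.61 at day 22. Genes of the mitochondrial genome were not analysed here.

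The same pair of days was then compared in the heat-stressed birds, which share no library with the controls but come from the same 2 tables. The design has heat start at day 21, so in these birds day and time under heat cannot be told apart either. Of 7894 tested genes, 23 rose (0.291%) and 58 fell (0.735%) at day 40, and 184 were higher (2.33%) and 758 lower (9.6%) at an adjusted p under 0.05. Of the 18 genes higher in control glands, 18 were also positive in heat-stressed glands and 9 passed the adjusted p there, which is 50% of the control list and 4.89% of the heat list. Of the 80 genes lower in control glands, 78 were also negative and 47 passed, which is 58.8% and 6.2% of those lists. The share of all tested genes with the same sign in both comparisons is not given here. S100B was 213 to 309 FPKM at day 40 and 49.9 to 144 at day 22 in heat-stressed glands, and CDK1 was 9.86 to 13.5 and 20.5 to 36.5 FPKM, with no overlap for either gene. TPPP3, CKAP2 and RRM2 were apart there too. The groups overlapped for SMC2 (1.92 to 5.82 and 3.56 to 14.9 FPKM) and PLK1 (0 to 3.33 and 2.85 to 5.75 FPKM). They also overlapped for PPP1R9A, SEMA3D, NUDT3, HRH3, FOS, BRF2, LOC768772 and RGS1. The share of all tested genes without overlap in heat-stressed glands is not given here. Of the cell cycle list, 15 of 21 genes were lower at an adjusted p under 0.05 in heat-stressed glands, with a median of -0.61.

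**Figure D4:**
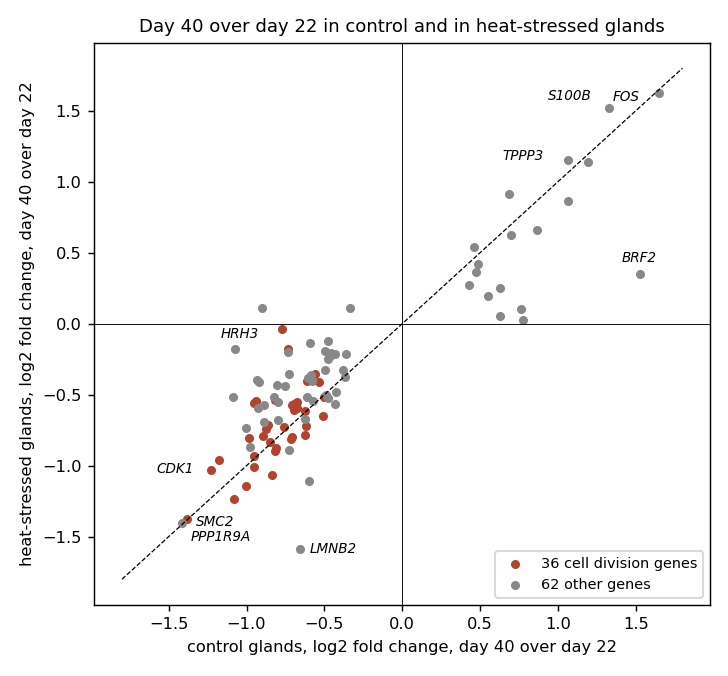
Log2 fold changes, day 40 over day 22, of the 98 genes with an adjusted p under 0.05 in control glands, in control glands (x axis, 5 and 10 libraries) and in heat-stressed glands (y axis, 5 and 13 libraries), with the 36 cell division genes in red and the line of equal change dashed. All 18 higher and 78 of the 80 lower genes have the same sign in both, and BRF2, at 1.53 in controls and 0.35 in heat-stressed glands, is among the farthest from the line.

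Some genes had unlike values in the heat-stressed birds. BRF2 had a log2 fold change of 0.35 there (adjusted p = 0.552, limma), against 1.53 in controls. Its median in heat-stressed glands was 1.78 FPKM at day 40 and 2.04 at day 22, so the median did not rise. HRH3 had -0.18 in heat-stressed glands (adjusted p = 0.693, limma), against -1.07 in controls. HSP90AA1 was 450 to 1189 FPKM at day 40 and 713 to 2539 at day 22 in heat-stressed glands (log2 fold change -0.84, adjusted p = 0.0309, limma), and HSP90B1, the HSP90 of the endoplasmic reticulum, had -1.24 (adjusted p = 0.00116, limma) against -0.55 in controls. At an adjusted p under 0.05 in heat-stressed glands, 6 of 13 cytosolic and 10 of 15 endoplasmic reticulum chaperone genes were lower, against 9.6% of all genes tested there. The list medians were -0.64 and -0.62, against -0.11 over all genes tested in heat-stressed glands. A test of the difference between the changes of control and heat-stressed birds found 0 of 7921 genes at an adjusted p under 0.05 with limma and 297 at an unadjusted p under 0.05, with a smallest adjusted p of 0.853, so for no gene was the change shown to differ between control and heat-stressed birds.

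Control glands of the other days are given as a description, each from a table of its own. The median of CDK1 was 22.7, 23.8, 16.4, 14.5, 9.45 and 18.3 FPKM at days 21, 22, 26, 32, 40 and 42, so day 40 had the lowest median. RRM2 had medians of 10.01, 9.58, 6.46, 5.86, 3.58 and 9.68 FPKM over the same days, and CKAP2 of 8.95, 9.94, 6.01, 5.69, 3.96 and 4.56. For PLK1 and SMC2 the medians of day 40, at 1.51 and 2.28 FPKM, were close to those of day 32, at 1.22 and 2.26, and under those of day 22, at 3.99 and 7.41. S100B had medians of 94.7, 80.0, 104, 151 and 197 FPKM at days 21, 22, 26, 32 and 40, and day 42 was not used for it. PPP1R9A was listed at 0 in 4 of 6 libraries at day 26 and in 5 of 6 at day 32, against 0 of 5 at day 40 and 0 of 10 at day 22. In the 15 libraries of day 21 PPP1R9A was 1.83 to 6.75 FPKM (median 4.70), which overlaps the ranges of both day 40 and day 22. Its medians at days 22, 40 and 42 were 7.68, 2.69 and 0.615 FPKM, so day 22 had the highest median of the days. FOS was at 31.2 to 193 FPKM at day 42, above all libraries of day 40. At days 21, 26 and 32 it was 1.95 to 17.7, 3.83 to 11.5 and 5.86 to 22.0 FPKM, so the ranges of days 21 and 32 overlap that of day 40.

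**Figure D5:**
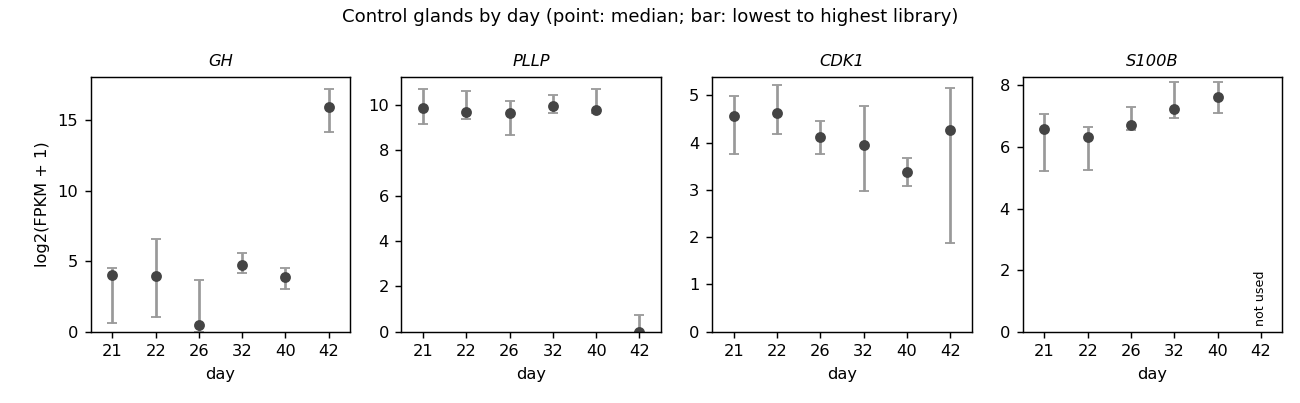
Level on log2(FPKM + 1) of GH, PLLP, CDK1 and S100B in control glands by labelled day, with the median as a point and the lowest to highest library as a bar (15, 10, 6, 6, 5 and 10 libraries). GH and PLLP at day 40 lie near day 22 and far from day 42, CDK1 has its lowest median at day 40 and S100B its highest, and S100B at day 42 was not used.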

How the data were processed

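RNA-seq libraries of single glands were made with an Illumina stranded kit. The authors aligned reads with Bowtie and TopHat to Gallus gallus version 4 (galGal4) and quantified them with Cufflinks, and tool versions and any scaling between libraries are not given in the sources used here. The deposited values are FPKM, with 1 table per day. Columns were matched to labels by bird number, and 3 columns that matched no labelled sample were left out. Tables were joined by gene symbol, and no symbol was on more than 1 line. FPKM hold no read counts, so no counting interval was computed, and depth is known only as a relative value.

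Genes averaging 1 FPKM or more were compared on log2(FPKM + 1) in R 4.3.3 by limma 3.58.1, using a mean trend, no covariate and Benjamini-Hochberg adjustment over all tested genes. Only the compared groups entered a fit. An interaction term of day and treatment over 33 libraries tested the difference between control and heat-stressed birds. Library measures were compared with two-sided exact permutation tests. Other steps ran in Python 3.11.15 (scipy 1.17.1, pandas 2.3.3, numpy 2.4.6, with matplotlib 3.10.9 for plots). Simulated data were used to test the fit on 7967 genes in 5 against 10 libraries, where it made 0 calls with no gene changed. It recovered 20.5% of genes changed 2-fold and 87.5% of those changed 4-fold. Recovery also required an estimate of at least 2-fold, which part of the true 2-fold changes miss at any number of birds. Since nothing says more than that each library is 1 bird, p-values measure the spread between these birds.

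The genes and lists were chosen with earlier results of these data known. Named genes are the 10 largest rises and falls among called genes whose groups did not overlap, of which there were fewer, the 4 members of each list with the smallest adjusted p, and every tested hormone, receptor and anterior pituitary factor. Some genes that the rule names are not reported here. Other genes with an adjusted p under 0.05 that are named were chosen after their values were seen. Alternatives were a pseudocount of 0.1, no filter, a minimum mean of 5 FPKM, TPM, rescaling to the median gene, array weights, no minimum change, an exact rank-sum test, libraries numbered 1500 and above, and leaving out each library. Further alternatives, without 498 genes that may hold failed estimates and without libraries 1578, 1579 and 1552, were added after seeing the data.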

Additional observations from a re-analysis of the deposited data

Results flagged for a closer look

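Values of single genes were searched with Dixon's test, and genes already seen to set libraries apart were among them. The share flagged can therefore not be set against the 1 in 20 that chance gives. Of 126 groups of values, 21 (16.7%) held a library far from the rest of its group. Among genes of the report these were FOS in day 22 library 1437 (14.4 FPKM), LOC768772 in day 40 library 1577 (491 FPKM, lower than the rest), NUDT3 in day 40 library 1279 (22.8 FPKM) and in day 22 library 1552 (11.1 FPKM, lower), BUB1B in day 22 library 1552 (6.61 FPKM) and ECT2 in day 22 library 1553 (5.14 FPKM). HMGCS1 stood apart in day 22 library 1523 (459 FPKM), GLUL and DIO2 in day 40 library 1279 (674.5 and 12.2 FPKM) and IGFBP5, an insulin-like growth factor binding protein, in day 22 library 1437 (19.7 FPKM).

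Genes of other tissues stood apart in single libraries. Day 40 library 1578 held the bone genes SPP1 at 867, IBSP at 207.7, MMP13 at 129 and DMP1 at 26.3 FPKM. Day 40 library 1579 held the pineal genes TPH1 at 82.5, ASMT at 39.1, OPNP at 21.2 and AANAT at 13.2 FPKM, and AANAT was also apart in day 22 library 1437 at 0.179 FPKM. EEF1A1, an elongation factor of translation, was at 824 FPKM in day 40 library 1279 and at most 106 in the other day 40 libraries. TAC1, a neuropeptide precursor, was at 44.8 FPKM in day 22 library 1437.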

How the results depend on the processing

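Genes that rose numbered 21 with array weights, 28 among libraries numbered 1500 and above (4 against 8), 18 with no minimum change, 0 by the exact rank-sum test, and 3 to 9 when 1 library was left out. Genes that fell numbered 74, 42, 80 and 0 in the same settings, 31 with a pseudocount of 0.1 and 31 without libraries 1578, 1579 and 1552, and 4 to 35 when 1 library was left out (35 without day 22 library 1552, 4 without day 22 library 1553). The rank-sum test had a smallest adjusted p of 0.0596, which is the adjusted value of the smallest p that 5 against 10 libraries allow, so it could call no gene. The median log2 fold change turned to 0.014 after rescaling to the median gene, and was -0.078 to -0.046 with 1 library left out. In heat-stressed glands 129 genes fell with a pseudocount of 0.1 and 35 after rescaling to the median gene, and leaving out a day 40 library gave 16 to 30 genes that rose and 42 to 80 that fell. Lower cell cycle genes numbered 17 with array weights, 4 among the fewer genes that average 5 FPKM or more, and 5 to 14 with 1 library left out (5 without day 40 library 1579). Of 1163 pairs of a reported gene and an alternative, over 49 genes, 0 reversed. The 15 called genes made 355 of these pairs and lost their call in 83 of them. Genes not called in the main fit gained a call in 39 pairs. CDK1, CKAP2, FOS, PPP1R9A, S100B and SMC2 kept their call in all 15 fits that left out 1 library. Other causes of these shifts were not tested. No paired analysis was possible because the replicate numbers are bird numbers that the groups do not share. Changes near 2-fold were mostly not called in simulated data. The rule of at least 2-fold limits such calls at any number of birds, and the part of having 5 birds was not separated from it.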
